A study of Homo sapiens with 6 samples.

Results

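The genes described here are 10 imprinted genes of the growth network that contains the zinc finger factor PLAGL1: PLAGL1, IGF2, H19, DLK1, MEG3, PEG3, PEG10, GRB10, MEST and NNAT. They were chosen by symbol, and all 10 were found among the 26485 symbols of the count tables. The libraries come from AF22, an established human neural stem cell line derived from induced pluripotent stem cells. Total RNA went into a directional library kit, and no source used here names an RNA selection step. The 3 control libraries carry a control short hairpin RNA (shControl) in cells labelled wild type, and the 3 knockdown libraries carry a knockdown of BMI1 and of COMMD3-BMI1, the read-through transcript of BMI1 and the gene upstream of it. All libraries are of the 1 cell line. The sources used here do not give the number of hairpins, the time after their delivery or whether the 3 libraries of a group came from separate cultures, so a p-value reflects only how far these libraries spread, and that spread may be technical.

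Total counts ran from 4962745 to 9640349 per library. BMI1, a Polycomb subunit, stood at 85.1, 90.0 and 87.4 CPM (read counts scaled to a common library total) in control libraries 1, 2 and 3 and at 39.9, 21.5 and 26.2 CPM with the knockdown, and every knockdown library was below every control library. Its log2 fold change was -1.64 (SE 0.155, edgeR adjusted p 0.00836) in a fit with library number as a block and -1.61 without the block (adjusted p 0.163). COMMD3, the upstream gene, was at 26.3 ± 2.06 and 32.5 ± 0.873 CPM (mean ± SD, n = 3 each), and COMMD3-BMI1 was listed at 0 throughout. Reads of the read-through may have been counted under COMMD3 or BMI1 or left out, since the counting rules are not given. Its 0 therefore does not show that it was absent. As a check of the neural stem cell label, SOX2 (345 CPM in control, 325 in knockdown) and NES (nestin, 1032 and 869) were well counted. All 11 stem cell markers found were detected. PAX6 (14.7 CPM in control), SOX1 (25.8), ZBTB16 (24.6) and DACH1 (24.7) lay below the median of the tested genes, 43.3 CPM. Of the 10 neuronal markers 7 were counted well enough to test, among them MAP2 (489 CPM in control), NEFM (221), NEFL (212) and TUBB3 (154), while DCX, STMN2 and ELAVL4 were at or near 0. Of the pluripotency markers NANOG and TDGF1 were at 0, while LIN28A (268 CPM in control), DPPA4 (143) and POU5F1 (76.1) were counted. The mesenchymal markers had counts in every group, their sum running from 1914 to 2349 CPM in control and from 2324 to 3336 CPM in knockdown libraries. Knockdown library 2 stood apart, at 40.2 on the first principal component against -25.5 to 11.5 for the other libraries. The numbers 1 to 3 were taken to pair a control with a knockdown library, because same-numbered libraries deviated together from their group means (across-gene correlations 0.563, 0.467 and 0.535). Paired values come from the fit with that block.

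An imprinted gene is transcribed mainly from the copy inherited from the mother or mainly from the copy inherited from the father, and DNA methylation laid down in the germ line marks which. Many such genes act on growth. Paternally expressed ones include IGF2, PLAGL1, DLK1, PEG3, PEG10 and MEST, and maternally expressed ones include H19 and MEG3. IGF2 and H19 share a cluster on chromosome 11, and DLK1 and MEG3 share one on chromosome 14. In the mouse Plagl1 regulates other genes of the set. In neural tissue several of them are linked to stem cell maintenance, and DLK1 and IGF2 act as secreted signals in neurogenic niches. The counts used here do not separate the parental copies, so they measure the summed output of both.

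The marks of imprinted loci lie in CpG-rich DNA, and start windows are printed here because the members divide into well-counted and silent genes, 2 of each being shown. For genes with several starts, the window with the most motif matches and CpG was taken. RefSeq start windows (250 bases before to 50 bases after a start, GRCh38.p14, 5′ to 3′ on the gene's strand) were matched for 5 of the 10 members. DLK1, IGF2, NNAT, PEG3 and PEG10 are named only. Capitals mark TGCCGC, the hexamer bound when methylated by ZFP57, a factor that keeps imprints, and GGGGCCCC, a sequence bound by PLAGL1, on both strands. In the MEST window a forward and a reverse hexamer overlap and print as 1 run of capitals. PLAGL1 (chr6:144008210-144008509, minus strand) and MEST (chr7:130491835-130492134, plus strand) are well-counted genes, and MEG3 (chr14:100825858-100826157, plus strand) and H19 (chr11:2001217-2001516, minus strand) are silent ones.
PLAGL1: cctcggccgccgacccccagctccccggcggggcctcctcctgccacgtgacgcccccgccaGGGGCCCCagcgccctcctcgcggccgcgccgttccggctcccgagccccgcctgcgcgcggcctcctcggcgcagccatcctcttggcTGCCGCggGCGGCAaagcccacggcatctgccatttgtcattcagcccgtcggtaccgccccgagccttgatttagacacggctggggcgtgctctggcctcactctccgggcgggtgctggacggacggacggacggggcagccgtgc
MEST: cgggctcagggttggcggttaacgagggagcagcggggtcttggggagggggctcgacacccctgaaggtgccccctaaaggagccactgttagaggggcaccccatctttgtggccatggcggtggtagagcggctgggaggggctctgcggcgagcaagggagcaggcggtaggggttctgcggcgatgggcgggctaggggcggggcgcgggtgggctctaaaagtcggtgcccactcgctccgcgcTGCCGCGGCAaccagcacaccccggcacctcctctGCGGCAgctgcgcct
MEG3: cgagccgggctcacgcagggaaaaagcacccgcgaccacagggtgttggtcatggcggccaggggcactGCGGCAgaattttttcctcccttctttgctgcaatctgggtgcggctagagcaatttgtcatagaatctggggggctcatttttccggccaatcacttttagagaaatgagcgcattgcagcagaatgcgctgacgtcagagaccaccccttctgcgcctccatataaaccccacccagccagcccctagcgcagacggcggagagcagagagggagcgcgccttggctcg
H19: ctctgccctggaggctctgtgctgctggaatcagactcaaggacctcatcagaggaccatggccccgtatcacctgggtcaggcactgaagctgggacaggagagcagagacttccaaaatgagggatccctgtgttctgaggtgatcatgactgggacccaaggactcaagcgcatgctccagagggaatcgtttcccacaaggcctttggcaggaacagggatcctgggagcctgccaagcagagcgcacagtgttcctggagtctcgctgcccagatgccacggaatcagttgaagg

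The PLAGL1 window held 39 CpG dinucleotides, more than 91.3% of 35114 RefSeq start windows of the same length, with 2 TGCCGC matches and 1 GGGGCCCC match. The MEST window held 25 CpG and 3 TGCCGC matches. The MEG3 window held 19 CpG and 1 TGCCGC match, and the H19 window held 6 CpG and no match, against a median of 14 CpG over all windows. Of all windows 16.7% held TGCCGC, 2.75% held it at least 2 times, and 1.95% held GGGGCCCC. These shares are of single windows, while the PLAGL1, MEST and MEG3 windows were picked among several starts for their matches, so they are no measure of enrichment. None of the other 4 PLAGL1 starts had either motif, and of the 5 GRB10 starts 1 had a TGCCGC match, in a window of 44 CpG. The other 4 MEST starts had 1, 1, 0 and 2 TGCCGC matches, the other MEG3 starts 1 each, and H19 had a single start. These matches describe the letters of the windows. The windows were placed by starts and not by imprint marks, and DNA outside them was not searched. The counts are per gene and do not say which start was used.

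Of the 10 members, 5 had enough counts to be tested (PEG10, MEST, GRB10, PLAGL1 and DLK1) and 5 did not (IGF2, MEG3, PEG3, H19 and NNAT). PEG10, a gene derived from a retrotransposon whose protein resembles viral Gag and Pol, had the highest level. It was at 1217, 973 and 948 CPM in control libraries 1, 2 and 3 and at 1296, 932 and 984 CPM in their knockdown counterparts. The 2 groups overlapped, and library 1 was the highest of both. MEST, which encodes a protein of the alpha/beta hydrolase fold, was at 306, 258 and 244 CPM in control and 328, 263 and 228 CPM in knockdown libraries. It also overlapped and was highest in library 1 of each group. Over the 6 libraries the log2 levels of PEG10 and MEST correlated at 0.89 (Pearson's r, 6 libraries that share pairs and scaling, given as a description). This was the highest value among pairs of tested members. DLK1 was at -0.81 with PEG10, -0.57 with GRB10 and -0.54 with MEST. PLAGL1 ran from -0.25 to 0.41 with the other tested members.

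**Figure D1:**
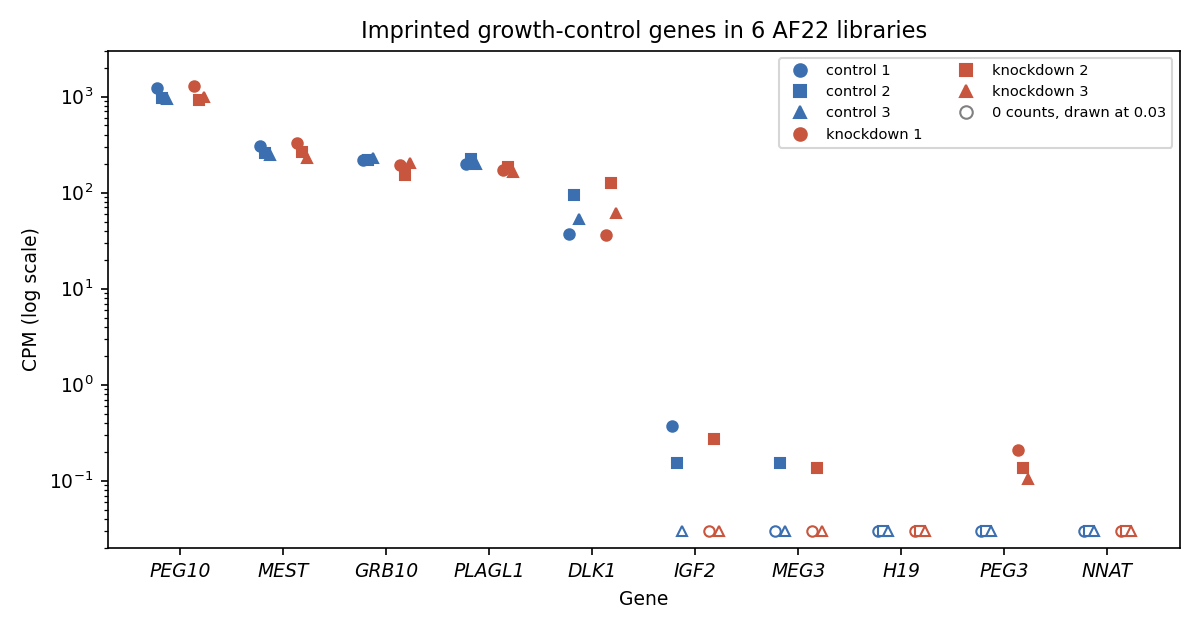
Level of each of the 10 genes in every library, as CPM on a log axis, with control in blue, knockdown in red and the marker shape giving the library number; open symbols are libraries with 0 counts. PEG10, MEST, GRB10, PLAGL1 and DLK1 lie between 36.4 and 1296 CPM, and no library of the other 5 genes exceeds 0.368 CPM.

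Compared per length (CPM per kilobase of the gene's median annotated transcript, mean ± SD, n = 3 control libraries), the order was PEG10 at 404 ± 57.3, MEST at 314 ± 37.8, GRB10 at 105 ± 2.73, PLAGL1 at 96.7 ± 7.08 and DLK1 at 66.1 ± 31.8. These levels were above those of 97.1%, 95.3%, 78.8%, 76.8% and 67.3% of the tested genes with a length, whose median was 34.5. The control libraries of GRB10 and PLAGL1 overlapped on this scale, as did those of PLAGL1 and DLK1. With the longest transcript in place of the median one the levels were 158, 107.5, 40.8, 32.8 and 13.1, in the same order.

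The other 5 members had few or no counts under their own symbols. H19, a maternally expressed long non-coding RNA, and NNAT, a small membrane proteolipid of neural tissue, were listed at 0 counts in all 6 libraries, which allows a level of up to 0.0739 CPM over the libraries together. That limit, of 3 counts, covers counting error only. MEG3, the maternally expressed long non-coding RNA next to DLK1, had 1 count in control library 2 and 1 in knockdown library 2. PEG3, a paternally expressed zinc finger gene, had 1 count in each knockdown library and 0 in the control libraries, too few to compare. IGF2, the growth factor itself, had 2, 1 and 0 counts in the control libraries by number, and 0, 2 and 0 with the knockdown. Both groups of each of these genes lay at or under the limit of 3 counts, so no fold change is given.

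Reads of shared exons may have been counted elsewhere, since the counting rules are not given. INS-IGF2, the read-through of the insulin gene and IGF2, covers 1460 of the 6979 exon bases of IGF2 (20.9%) on the same strand. Its counts were 24, 17 and 3 without and 16, 50 and 17 with the knockdown. ZIM2 shares 12.9% of the exon bases of PEG3 and was at 0. BLCAP shares 6.38% of those of NNAT on the opposite strand. For MEG3 and H19 the share held by other listed symbols was 0.422% and 2.52%.

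At several loci silent and well-counted genes lay side by side, but not at that of PEG3. On chromosome 14 (GRCh38, GENCODE 29), DLK1 at 100725705 to 100738224 was well counted and MEG3 at 100779410 to 100861031 was not. Of the genes beyond MEG3 in that cluster, the non-coding RNA MEG8 was at 0 and MEG9 had 2 counts in all. RTL1, a paternally expressed retrotransposon-derived gene, had 8 or 9 counts in each control library, and 8, 4 and 3 with the knockdown. DIO3, which inactivates thyroid hormone, was at 12.1, 14.8 and 5.48 CPM in control and 9.72, 6.89 and 4.30 CPM in knockdown libraries, so that the groups overlapped. On chromosome 11 IGF2 (2129112 to 2149603), H19 (1995176 to 2001470), INS and IGF2-AS were silent or nearly so, while CDKN1C and KCNQ1OT1, of the adjoining imprinted domain, were counted at 46.6 ± 4.26 and 15.3 ± 5.13 CPM in control libraries (n = 3). NNAT (chromosome 20, 37521206 to 37523693) lay silent inside BLCAP, which was at 100.7 ± 6.57 CPM in control libraries (n = 3). PEG3 (chromosome 19, 56810077 to 56840728) had ZIM2 and MIMT1 beside it, both at 0.

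The comparison of knockdown with control asks how these genes differ in cells with the knockdown. The BMI1 symbol was lower in these cells, and the read-through symbol was listed at 0 in both groups. Without the block, edgeR's quasi-likelihood test at an adjusted p threshold of 0.05 passed 0 of 12937 genes (0%) and 0 of the 5 members; 1869 genes and 2 members, PLAGL1 and GRB10, had an unadjusted p under 0.05, DESeq2 called 142 genes and 0 members, and limma voom called 0 of both. With the block, edgeR called 1296 genes (10%), 4.63% as higher, and among the members it called 1, PLAGL1, as lower (5.39% of all genes were called lower). The median log2 fold change of the 5 members was 0.01, and that of all tested genes was -0.0045. With 1 call among 5 members, the count is a value for PLAGL1 and not for the set. In bulk RNA fewer cells of a type and less RNA per cell cannot be told apart.

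PLAGL1 (chromosome 6, 143940300 to 144064599, minus strand) encodes a zinc finger transcription factor that can halt the cell cycle. Its control libraries held 1080, 1451 and 1370 reads and its knockdown libraries 825, 1352 and 1582. On the CPM scale these were 198.5, 224 and 198 in control and 171, 183 and 166 in knockdown libraries. All knockdown libraries were below all control libraries, which was so, as lower, for 11.2% of the tested genes (20.5% in either direction). PLAGL1 fell by 0.26 on the log2 scale in the fit with the block (SE 0.0611, edgeR adjusted p 0.0380), to 0.837 of the control level. Without the block the log2 fold change was -0.26 (SE 0.0904, edgeR adjusted p 0.282). The differences in pairs 1, 2 and 3 were -0.22, -0.30 and -0.25, lower in 3 of 3; over all tested genes 52.3% had 1 direction in the 3 pairs. The paired call was lost without pair 1 (edgeR adjusted p 0.0991) and without pair 3 (0.233), and held without pair 2 (0.000261); paired DESeq2 gave 0.196. HYMAI, a non-coding RNA of the same locus that shares 3.31% of the PLAGL1 exon bases, was at 2.19 ± 0.448 and 1.69 ± 0.204 CPM (n = 3 each, paired edgeR adjusted p 0.462).

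GRB10 (chromosome 7, 50590063 to 50793462, minus strand) encodes an adaptor that binds and restrains the insulin and IGF1 receptors. Its level was 219, 217.5 and 228 CPM without and 194, 151 and 204.5 CPM with the knockdown, in the order of the numbers. The groups did not overlap, and knockdown library 2 was the lowest. The log2 fold change was -0.29 in the fit with the block (SE 0.0832, edgeR adjusted p 0.0607) and -0.28 without it (SE 0.12, edgeR adjusted p 0.342), so GRB10 was not called in either. The pair differences were -0.18, -0.53 and -0.16, lower in 3 of 3. Without pair 2 the paired value was -0.17 and the edgeR adjusted p 0.0129. It was also called in the paired fit with total count scaling (0.0466) and with no filter on low counts (0.0147).

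**Figure D2:**
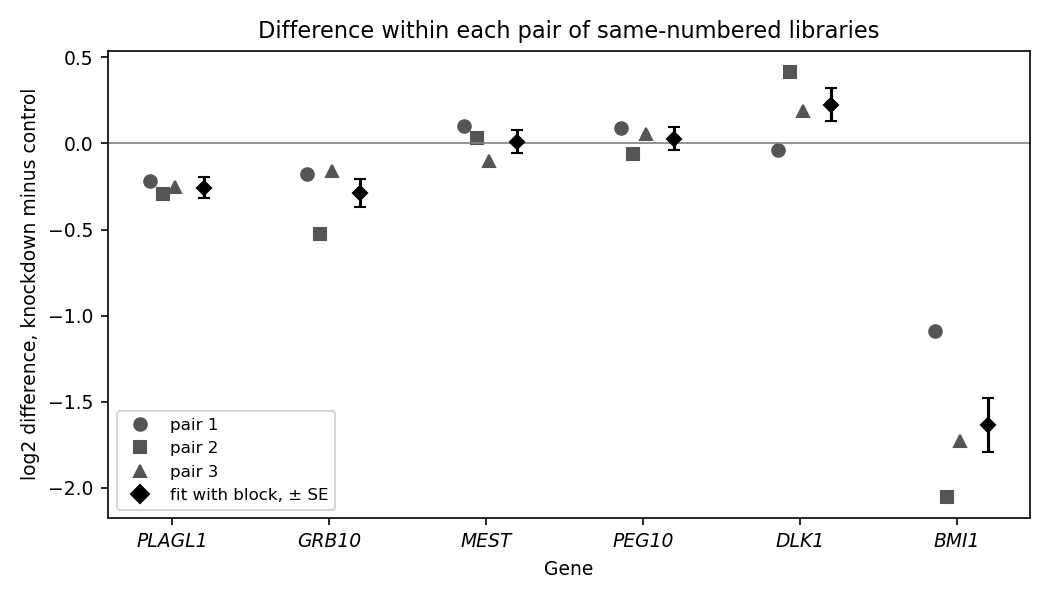
Difference between the knockdown and the control library of each pair on the log2 scale (grey symbols by pair) for the 5 tested members and BMI1, with the estimate of the fit with the block and its SE (black diamond). The 3 pairs of PLAGL1 lie between -0.30 and -0.22, those of GRB10 between -0.53 and -0.16, and those of MEST, PEG10 and DLK1 on both sides of 0.

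DLK1, a membrane and secreted protein related to Notch ligands, varied between libraries more than it differed between groups. It was at 37.3, 95.2 and 53.7 CPM in control libraries 1, 2 and 3 and at 36.4, 127 and 61.3 CPM in their knockdown counterparts. In both groups library 1 was lowest and library 2 highest, with a range of 2.55-fold in control and 3.49-fold in knockdown libraries. The SD of its log2 level over the control libraries, 0.678, was larger than in 99.3% of the 11434 tested genes with a control mean of at least 5 CPM. The corresponding SD was 0.0371 for GRB10 and 0.103 for PLAGL1, above 7.85% and 45.1% of these genes. The log2 fold change of DLK1 was 0.23 in the fit with the block (SE 0.0941, edgeR adjusted p 0.155) and 0.28 without it (SE 0.453, edgeR adjusted p 0.811). Without knockdown library 2 the unpaired value turned to -0.32 (edgeR adjusted p 0.784), and without pair 2 the paired value was 0.11 (0.462).

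Neither PEG10 nor MEST passed the test. PEG10 had a log2 fold change of 0.03 in the fit with the block (SE 0.0679, edgeR adjusted p 0.824), with pair differences of 0.09, -0.06 and 0.05. MEST had a log2 fold change of 0.0091 (SE 0.0661, edgeR adjusted p 0.944), -0.0075 with total count scaling, and pair differences of 0.10, 0.03 and -0.10. Their overlapping neighbours did not pass either: COPG2, a coat protein subunit that overlaps MEST, was at 111 ± 8.14 and 113 ± 10.6 CPM, and SGCE, the sarcoglycan gene that overlaps the start of PEG10 on the other strand, at 54.0 ± 2.20 and 60.9 ± 2.30 CPM (n = 3 each). SGCE was higher in every knockdown library than in any control library but was not called (edgeR adjusted p 0.174 with the block). MEST shares exon bases with COPG2 and with the antisense RNA MESTIT1 (4.76% and 10.1% of its own), and no strand setting is given for the counting.

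Beyond the members, 49 of 51 listed imprinted genes and partner transcripts were found in the files, 9 of them at 0 in all libraries, and 33 could be tested. The fit with the block called 3 higher and 1 lower, with a median log2 fold change of 0.06. Over all tested genes 10% were called, 4.63% as higher and 5.39% as lower, so these calls are values of single genes and not of the list. CDKN1C, the cyclin-dependent kinase inhibitor p57, went from 46.6 ± 4.26 to 70.5 ± 16.2 CPM (n = 3 each), a rise of 0.59 on the log2 scale (SE 0.111, edgeR adjusted p 0.0256). Its libraries were at 42.3, 46.7 and 50.8 CPM in control and 56.2, 88.1 and 67.3 CPM in knockdown, with no overlap, and the value was 0.41 without pair 2. BLCAP, the gene around NNAT, rose by 0.46 (edgeR adjusted p 0.0407, and a value of 0.28 without pair 2). Its knockdown libraries were at 105, 179 and 136 CPM, and library 1 lay within the control range of 93.7 to 106.8 CPM. NDN (necdin), a growth suppressor of the Prader-Willi region, rose by 0.24 (edgeR adjusted p 0.0488), from 102 ± 5.36 to 121 ± 7.38 CPM (n = 3 each). The zinc finger gene ZNF331 fell by 0.59 (edgeR adjusted p 0.0345), from 30.8 ± 2.90 to 20.9 ± 2.90 CPM (n = 3 each). The call of NDN was lost without pair 1 (0.0931), without pair 3 (0.290), in paired DESeq2 (0.273) and with total count scaling (0.0630), and that of ZNF331 without pair 3 (0.0677) and in paired DESeq2 (0.0838). Without pair 2, 6 of the list were higher and 1 lower, and without pair 3, as in paired DESeq2, 2 were higher and none lower. Without the block edgeR called 0 genes of this list and of the lists that follow, and the adjusted p of the genes named in them as changed was 0.258 to 0.524.

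**Figure D3:**
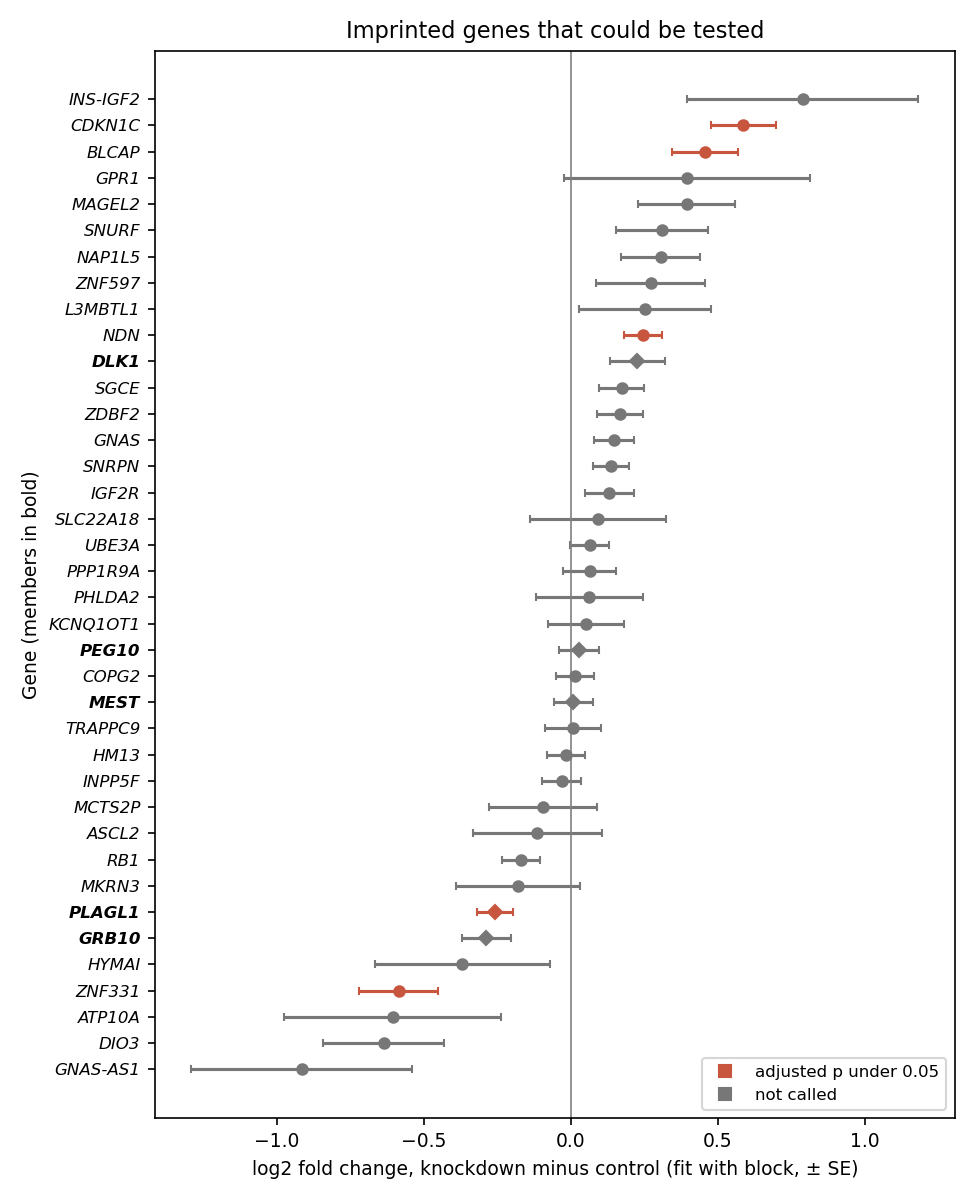
Log2 fold change (knockdown minus control) with its SE, from the fit with the block, for the 5 tested members (bold, diamonds) and the 33 other imprinted genes and partners that could be tested, with genes called at an adjusted p of 0.05 in red. CDKN1C, BLCAP and NDN lie to the right of 0, and PLAGL1 and ZNF331 to the left, among the genes called.

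In the insulin and IGF pathway IGF2 signals through IGF1R and INSR and is cleared by the imprinted receptor IGF2R. Of 23 tested genes of this list 6 rose and 1 fell in the fit with the block (median 0.09). Over all tested genes 4.63% were called higher and 5.39% lower. The receptors did not pass: IGF1R was at 235 ± 6.67 and 229 ± 7.13 CPM, IGF2R at 337.5 ± 12.9 and 373 ± 68.8 CPM and INSR at 25.3 ± 2.81 and 20.5 ± 3.59 CPM (n = 3 each). IGF1, the other ligand, had 4 counts in all. IGFBP4, a binding protein, rose by 0.35 (edgeR adjusted p 0.0248), the adaptor gene SHC1 by 0.34 (0.0256), IGFBP6 by 1.01 (0.0305) and STC1, an inhibitor of the IGFBP protease PAPPA, by 1.42 (0.0244). PIK3R1 rose by 0.57 (edgeR adjusted p 0.0358) and STC2 by 0.65 (0.0473). The groups did not overlap for SHC1, STC1 and PIK3R1, but they did for IGFBP4, IGFBP6 and STC2. IGFBP6 and STC1 were low, at 3.11 and 2.51 CPM in control. The gene that fell was IGFBP5, by 0.32 (edgeR adjusted p 0.0454), from 173 to 139 CPM, with overlapping groups. IGFBP3, at 145 CPM in control, had a log2 fold change of -0.43 (edgeR adjusted p 0.0910), and IGFBP2 was at 0.09 (0.428). Neither of these was called, so the binding proteins did not move in 1 direction. Without pair 3 the edgeR adjusted p was 0.125 for IGFBP4, 0.129 for SHC1 and 0.0581 for IGFBP6, and 3 of the list rose and 2 fell. Paired DESeq2 called 3 as higher and none as lower.

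Of 15 tested factors of imprint methylation 3 fell and none rose in the fit with the block (median -0.15). Over all tested genes 5.39% were called lower and 4.63% higher. DNMT1, the maintenance DNA methyltransferase, was at 325, 299 and 275 CPM in control and 268, 175 and 205 CPM in knockdown libraries, with no overlap, and fell by 0.49 (SE 0.0922, edgeR adjusted p 0.0256), or by 0.36 without pair 2. UHRF1, which recruits DNMT1 to newly copied DNA, fell by 0.54 (edgeR adjusted p 0.0281), and the histone chaperone gene DAXX fell by 0.39 (0.0266). The groups of UHRF1 overlapped (184.9 CPM in knockdown library 1, 184.5 in control library 3), and those of DAXX did not. TET3, a methylcytosine oxidase gene, was at 101 ± 4.12 and 86.7 ± 4.76 CPM (n = 3 each, edgeR adjusted p 0.0788). TRIM28, the corepressor that ZFP57 recruits, was at 566 ± 16.0 and 535 ± 55.1 CPM (n = 3 each, edgeR adjusted p 0.440). ZFP57 itself had 27 counts in all, too few to test, and DNMT3L and DPPA3 were at 0. Without pair 2, 5 of the list fell, and the call of DAXX was lost without pair 3 (0.0629) and in paired DESeq2 (0.0595).

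PLAGL1 has a pair of relatives in the PLAG family. PLAG1, a growth-promoting zinc finger gene, was at 45.8, 47.9 and 51.4 CPM in control and 57.3, 86.0 and 65.2 CPM in knockdown libraries, with no overlap, and rose by 0.51 (SE 0.111, edgeR adjusted p 0.0307 with the block, 0.258 without). Its rise was 0.33 without pair 2. PLAGL2 was at 93.9 ± 5.62 and 91.5 ± 3.21 CPM (n = 3 each) and did not pass. By Pearson's correlation of log2 CPM with PLAGL1 over the 6 libraries, among 11446 genes, the most alike were TRIM45 and ERI2 (both 0.99), ACVR1B (0.99) and NHLRC3 (0.99). These are the highest of 11446 values over only 6 libraries and are given as a description. Each of these genes, like PLAGL1, was lower in every knockdown library than in any control library, as were 11.2% of all tested genes. Since they were picked for following PLAGL1 over these same libraries, that shared direction comes from the choice and is no separate result.

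Markers of dividing cells were lower with the knockdown. In the fit with the block 9 of 10 fell and none rose (median -0.58, and -0.38 without pair 2), with MKI67 going from 383 to 215 CPM. Their summed level ran from 2309 to 2683 CPM in control and from 1199 to 2312 CPM in knockdown libraries, with no marker at 0. For 4 of the 10 every knockdown library was below every control library, as for 11.2% of all tested genes. Of the mesenchymal markers 2 of 10 rose and none fell, COL3A1 by 0.39 (edgeR adjusted p 0.0322) and POSTN by 0.31 (0.0261), both with overlapping groups. Of the 7 tested neuronal markers 2 fell and none rose: ELAVL3, an RNA-binding protein gene, fell by 0.96 (edgeR adjusted p 0.0256) and the neurofilament gene NEFM by 0.89 (0.0305). The groups overlapped for ELAVL3 and not for NEFM. The other tested neuronal markers were not called and went both ways. SYT1 was at 0.29 (edgeR adjusted p 0.0608), MAP2 at 0.15 and SNAP25 at 0.15, while NEFL was at -0.35 and TUBB3 at -0.18. Over all tested genes 4.63% were called higher and 5.39% lower. The summed level of the neuronal markers ran from 1090 to 1240 CPM in control and from 895 to 1142 CPM in knockdown libraries. The part of these shifts in the values of PLAGL1, CDKN1C, DNMT1 and UHRF1 was not tested.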

How the data were processed

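RNA sequencing libraries of AF22 cells, 3 control and 3 knockdown, were grouped and numbered by their titles. The authors deposited 1 table per library of raw read counts per gene symbol, judged from the values; Trim Galore 0.6.6, STAR 2.7.10a, bedtools and hg38 are named per the submitters' processing notes. For the counting program, its annotation and its strand setting, none is given in the sources used here. Total counts were 4962745 to 9640349.

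Counts were tested with edgeR 4.0.16 (R 4.3.3): filterByExpr defaults (12937 genes), TMM factors, quasi-likelihood F test, group as the only term, Benjamini-Hochberg adjustment over all genes, threshold 0.05. SE is the log2 fold change divided by the square root of F. CPM uses TMM-scaled totals of the tested genes, and log2 values a prior count of 2. Same-numbered libraries correlated in their deviations above the bound of 0.1, so the pairing comes from the data, and a fit with the number as a block is given beside the unpaired one. Libraries within a group all differed beyond sampling noise (chi-square per gene at least 3.19, over genes with at least 20 counts).

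Alternatives were RLE factors, total counts, DESeq2 1.42.0, limma 3.58.1 voom, a filter of 1 CPM in at least 3 libraries, no filter, leaving out each library or pair, and the longest transcript; applying them to lists and to genes that are no members was chosen after seeing the data. Lengths came from GENCODE 29, for 94.9% of tested genes. Members, lists and tests were chosen with earlier results of these data known. Named were all members, up to 4 genes per list by paired p, overlapping neighbours, the target locus and the 4 genes most correlated with PLAGL1 (mean of at least 5 CPM); other genes named were picked after their values were seen. The pipeline was tested on simulated data.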

Additional observations from a re-analysis of the deposited data

How the results depend on the processing

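The replicate block turned 0 calls into 1296 of all genes and 1 of the members. With the block, RLE factors gave 1335 genes and 1 member, total counts 1283 and 2, no filter 2171 and 2, at least 1 CPM in 3 libraries 1328 and 1, DESeq2 590 and 0, and limma voom 1390 and 1. Without it, no filter gave 2 genes and DESeq2 142, and no member was called. Leaving out 1 library gave 0 to 665 genes, the highest without knockdown library 1, and no member. In the paired fit, leaving out 1 pair gave 912 to 2296 genes (1320 without pair 1) and 0 to 2 members. The paired split of higher and lower genes was 599 and 697, and 494 and 789 with total counts. PLAGL1 stayed negative under every alternative run (-0.30 to -0.20) and so did GRB10 (-0.37 to -0.15). Small values changed sign. With total counts and the block MEST was -0.0075 and COPG2 -0.0023, and COPG2 was -0.0016 with total counts alone. With 1 library left out PEG10 ran from -0.12 to 0.16, MEST from -0.13 to 0.13, DLK1 from -0.32 to 0.72, COPG2 from -0.049 to 0.079 and PLAGL2 from -0.068 to 0.017. With 1 pair left out PEG10 ran from -2.1e-05 to 0.07, MEST from -0.031 to 0.066 and COPG2 from -0.0076 to 0.04. With the longest transcript the control levels per kilobase were 158 (PEG10), 107.5 (MEST), 40.8 (GRB10), 32.8 (PLAGL1) and 13.1 (DLK1). The causes of these shifts were not tested. Leaving out a library or pair changed both how many libraries were compared and which ones. Members with 5 counts or fewer in all could not be tested at this depth.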
